A study of Mus musculus with 104 samples.

Results

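The 10 genes described here make serine, pass its carbon into the folate cycle or carry amino acids across the cell membrane, and their transcripts were followed in single dopaminergic neurons of the mouse substantia nigra. They are the serine synthesis enzymes Phgdh, Psat1 and Psph, the mitochondrial folate enzymes Shmt2 and Mthfd2, and the transporters Slc7a5, Slc3a2, Slc7a11, Slc1a4 and Slc7a3. The 10 genes are 10 of the 45808 gene rows measured, and 9 of them are among the 9113 genes counted as expressed. A gene was counted as expressed if its pooled level was at least 10 counts per 1000000 gene counts (CPM) and a count was found in 25% or more of either group's libraries. Slc7a11 did not pass. The genes were chosen by name, with earlier results of these measurements known, and the choice followed from measured values, the pooled ratios between the groups. Their ratios are therefore a description with no test, and nothing is supported by their size.

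The study concerns fluorescent reporters that make Lewy pathology, the protein inclusions of Parkinson disease, visible in living brain. Its design text describes the picking of neurons with α-Syn-6H-EGFP inclusions from acute slices, in which the content of a neuron was drawn into a patch pipette. The libraries, each from 1 pipette, fall by title into 38 named experiment and 66 named control. Every library carries the same tissue and cell type label, substantia nigra and dopaminergic neuron. Genotype, age, treatment, the source of the inclusions, and which neurons served as control are not stated in those labels. No label ties a library to an animal, so each group counts as 1 sample and no test between the groups can be made. Levels are pooled CPM, the counts of a gene summed over a group and scaled by the total gene counts of that group. Intervals cover counting error only, and reads carry no molecular identifiers.

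Libraries held 116567 to 3094036 gene counts in the experiment group and 153770 to 2577694 in the control group. The median number of genes with a count was 7354 in the experiment libraries and 8548 in the control libraries. Both Th, the enzyme that commits tyrosine to dopamine, and Slc6a3, the dopamine transporter, had counts in all 38 experiment and all 66 control libraries. Levels of Th ran from 138 to 10616 CPM with a median of 6172 in the experiment group, and from 1128 to 27011 CPM with a median of 8983 in the control group. Experiment 27 stood apart, with Th at 138 CPM and a summed level of 12 astrocyte markers of 9999 CPM. Experiments 49 and 52 had Th at 1304 and 1302 CPM and astrocyte sums of 3153 and 6454 CPM. Results are given below also without the fifth of the libraries with the highest astrocyte sums, which includes all of these. Title numbers run in 4 blocks, which the labels do not call batches. Block 1 held 7 experiment and 10 control libraries, block 2 held 14 and 21, block 3 held 12 and 18, and block 4 held 5 and 17.

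As background, Phgdh, Psat1 and Psph act in that order to turn an intermediate of glycolysis into serine, which is also the source of glycine. Shmt2 splits serine into glycine and a carbon unit carried by folate inside mitochondria, and Mthfd2 processes that unit for purine synthesis and redox balance. In the brain, serine is made largely by astrocytes and passed to neurons. Slc3a2 is the heavy chain that brings light chains such as Slc7a5, which carries large neutral amino acids, and Slc7a11, which trades glutamate for cystine, to the membrane. Slc1a4 carries serine, alanine and other small neutral amino acids, and Slc7a3 carries arginine and lysine. Several of these genes are known targets of ATF4, a transcription factor of the amino acid and integrated stress responses.

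Promoter windows from RefSeq (build GRCm38.p6, from 250 bases before to 50 after the start) were found for 8 of the 10 genes, with no window for Slc7a5 and Slc7a3. The core of the composite element bound by C/EBP and ATF factors, TGATGNAA on either strand, occurred in the windows of 2 of these 8 genes, Slc7a11 and Slc1a4. Over 27025 genes with a window 4.51% held it, and over the 6997 expressed genes with a window 2.62%. A match is a description of letters and not a site. The stretches from 150 bases before to 10 after the start are shown for both genes with a match, and for Psat1 as an example without a match. All 3 lie on the minus strand and are written 5′ to 3′ in the direction of the gene, with matches in capitals.
Slc7a11, chr3:50443604-50443763: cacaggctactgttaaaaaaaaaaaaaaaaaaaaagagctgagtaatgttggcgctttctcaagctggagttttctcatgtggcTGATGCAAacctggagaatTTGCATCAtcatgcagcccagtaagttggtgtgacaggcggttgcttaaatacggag
Slc1a4, chr11:20332704-20332863: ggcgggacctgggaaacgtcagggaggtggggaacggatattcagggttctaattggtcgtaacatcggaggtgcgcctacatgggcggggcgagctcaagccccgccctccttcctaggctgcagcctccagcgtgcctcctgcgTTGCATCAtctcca
Psat1, chr19:15925050-15925209: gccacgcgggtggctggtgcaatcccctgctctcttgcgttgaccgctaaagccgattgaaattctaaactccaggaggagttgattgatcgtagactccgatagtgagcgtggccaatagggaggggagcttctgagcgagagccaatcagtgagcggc
The Slc7a11 stretch holds one match 66 bases before the start and another on the opposite strand 47 bases before it. The match of Slc1a4 begins 4 bases before the start and runs over it. The second window of Psat1 also held no match.

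Across the 10 genes the enzymes of serine synthesis and of the mitochondrial folate cycle were 4.09 to 6.13 times as high in the experiment group as in the control group by pooled CPM. Slc7a5 was 4.17 and Slc3a2 2.27 times as high, while Slc1a4 and Slc7a3 differed by less than 2-fold. Of the 9 expressed genes, 7 were at least 2-fold higher in the experiment group and 0 at least 2-fold lower. Among all expressed genes 3.45% were at least 2-fold higher and 5.88% at least 2-fold lower. The choice of the genes rests on the same ratios, so nothing is read from this contrast. The median log2 ratio was 2.06 for the 9 genes and -0.03 for all expressed genes. In every gene the lowest library of both groups held no count, so all groups overlapped at the bottom of their range.

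Per kilobase of merged exons, Slc3a2 was the most abundant of the 10 genes in the experiment group, at 109.8 CPM per kilobase, followed by Slc7a3 at 52.1, Psat1 at 44.6 and Mthfd2 at 41.9. Phgdh at 33.3, Slc1a4 at 30.3, Shmt2 at 26.5, Slc7a5 at 20.5 and Psph at 16.7 CPM per kilobase came next, and Slc7a11 was last at 0.165. In the control group Slc3a2 at 48.4, Slc7a3 at 33.9 and Slc1a4 at 22.1 CPM per kilobase stood ahead of the 5 enzymes and Slc7a5, which lay between 4.08 and 9.22. Slc7a11 was last there too, at 0.0744 CPM per kilobase. Libraries of neighbouring genes overlapped throughout both orders.

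Phgdh, the first and committed enzyme of serine synthesis, lies at chr3:98313170-98339990 on the minus strand. In the experiment group its level ran from 0 to 447 CPM with a median of 35.7, and in the control group from 0 to 167 CPM with a median of 0. The pooled level was 82.9 CPM against 15.3 CPM, a ratio of 5.41 (95% counting interval 5.05 to 5.79). Phgdh was counted in 21 of 38 experiment neurons and in 19 of 66 control neurons, and 8 experiment neurons lay above the highest control neuron. After every library was thinned to 400000 counts, the shares with a count were 61.8% and 30.00%. A processed copy, Phgdh-ps1, is annotated, and how reads shared between copies were counted is not given.

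Psat1, the aminotransferase of the second step, lies at chr19:15904678-15947337 on the minus strand. Its level ran from 0 to 752 CPM with a median of 90.7 in the experiment group, and from 0 to 368 CPM with a median of 2.17 in the control group. Pooled levels were 189.7 and 31.2 CPM, a ratio of 6.08 (5.80 to 6.37). The upper quartile of the experiment neurons, 336 CPM, lay close to the highest control neuron, and 28 of 38 experiment neurons lay above the control median. Thinned libraries had a Psat1 count in 76.5% of the experiment and 51.7% of the control group. Where a count was present, its median was 212 CPM in the experiment and 31.9 CPM in the control group.

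Psph, the phosphatase of the last step, lies at chr5:129765558-129787449 on the minus strand and overlaps Cct6a on the other strand. Experiment libraries ran from 0 to 522 CPM with a median of 39.7, and control libraries from 0 to 268 CPM with a median of 0. The pooled levels of 72.2 and 17.6 CPM gave a ratio of 4.09 (3.83 to 4.37). Only experiment 46, at 522 CPM, lay above the highest control neuron, so the groups overlapped almost over their whole range. Experiment 46 held 27.8% of the experiment counts of Psph, and control 42 held 42.9% of the control counts. Without control 42 the ratio was 6.97, and without experiment 46 it was 3.07.

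Shmt2, the mitochondrial serine hydroxymethyltransferase, lies at chr10:127517123-127522444 on the minus strand and overlaps Ndufa4l2. Its level ran from 0 to 373 CPM with a median of 30.04 in the experiment group, and from 0 to 98.4 CPM with a median of 0 in the control group. Pooled levels were 82.2 and 13.4 CPM, a ratio of 6.13 (5.71 to 6.58), the highest ratio among the 10 genes, with an interval that overlaps those of Psat1 and Phgdh. More experiment neurons lay above the highest control neuron for Shmt2, 12 of 38, than for the other enzymes. Mthfd2, at chr6:83305691-83325908 on the minus strand, ran from 0 to 838 CPM with a median of 70.5 in the experiment group, and from 0 to 518 CPM with a median of 1.61 in the control group. Its pooled levels of 146 and 32.2 CPM gave a ratio of 4.54 (4.33 to 4.76). A pair of experiment neurons exceeded the highest control neuron, control 7, which held 22.5% of the control counts of Mthfd2.

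Slc7a5, at chr8:121881150-121907694 on the minus strand, differed in level more than in presence. Its level ran from 0 to 497 CPM with a median of 13.2 in the experiment group, and from 0 to 126 CPM with a median of 5.70 in the control group. Pooled levels were 76.2 and 18.2 CPM, a ratio of 4.17 (3.92 to 4.45). A Slc7a5 count was present in 64.7% of the thinned experiment libraries and 68.3% of the thinned control libraries, while 6 experiment neurons lay above every control neuron. Where Slc7a5 had a count, its median was 56.1 CPM in the experiment and 20.5 CPM in the control group. Experiment 46 held 25.1% of the experiment counts.

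Slc3a2, the heavy chain at chr19:8706882-8723369 on the minus strand, was present in nearly every neuron, being counted in 36 of 38 in the experiment group and 59 of 66 in the control group. Its level ran from 0 to 1098 CPM with a median of 316 in the experiment group, and from 0 to 449 CPM with a median of 163 in the control group. The ratio of the pooled levels, 387 and 171 CPM, was 2.27 (2.21 to 2.32). It was 1.35 when libraries were scaled by spike-in counts. Above the highest control neuron lay 12 of 38 experiment neurons, and the rest of the experiment group overlapped the controls.

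Slc1a4, at chr11:20302180-20332713 on the minus strand, had nearly equal medians, 77.8 CPM with a range from 0 to 657 in the experiment group and 77.7 CPM with a range from 0 to 294 in the control group. Its pooled levels were 119 and 86.6 CPM, a ratio of 1.37 (1.32 to 1.43) that turned to 0.819 when libraries were scaled by spike-in counts. Slc7a3, at chrX:101079210-101086020 on the minus strand, ran from 0 to 827 CPM with a median of 123 in the experiment group, and from 0 to 592 CPM with a median of 64.9 in the control group. Its pooled levels were 197 and 128 CPM, a ratio of 1.54 (1.49 to 1.58) that turned to 0.916 under spike-in scaling. Both genes were counted in 30 of 38 experiment neurons and in 52 of 66 control neurons. Without experiments 46 and 55, an alternative chosen after the data were seen, the ratios were 1.12 for Slc1a4 and 1.20 for Slc7a3.

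Slc7a11, the cystine transporter at chr3:49892526-50443614 on the minus strand, was nearly absent. Its median was 0 CPM in both groups, and it was counted in 6 of 38 experiment neurons and in 10 of 66 control neurons. Pooled levels were 2.29 and 1.04 CPM, and experiment 49 alone held 44.6% of the experiment counts, control 55 alone 45.5% of the control counts. The ratio of 2.21 (1.62 to 3.03) was 1.25 without experiment 49 and 3.99 without control 55. Slc7a11 therefore gave no level that could be compared between the groups at this depth.

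**Figure D1:**
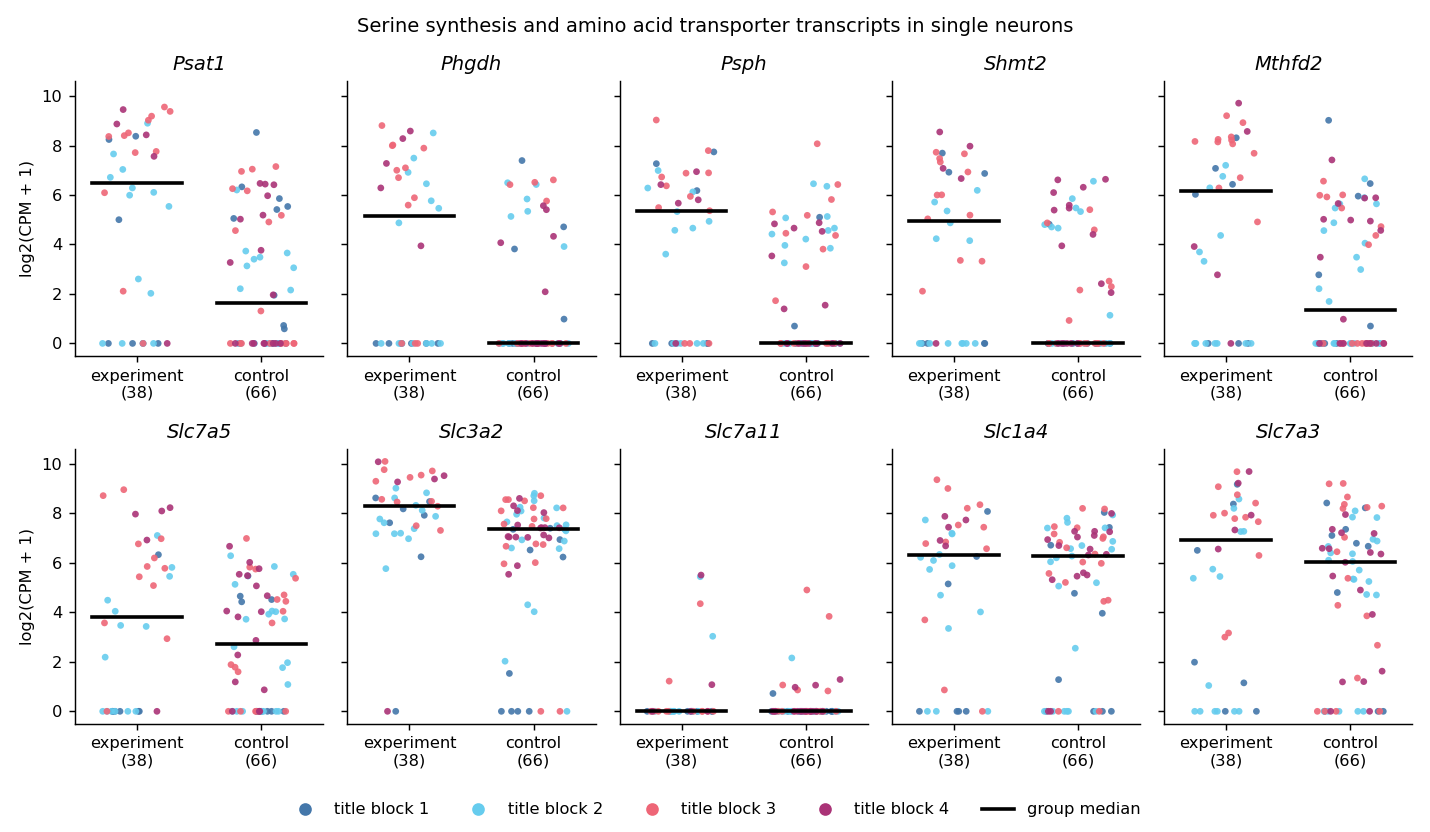
Level of each of the 10 genes in single neurons, as log2(CPM + 1) on the vertical axis, for 38 experiment and 66 control neurons; points are neurons coloured by title block and black lines are group medians. For Psat1 the group medians are 90.7 and 2.17 CPM, for Slc1a4 they are 77.8 and 77.7 CPM, and points at 0 are present in both groups for every gene.

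Strand use in the counting is not given, so reads of genes that overlap on opposite strands cannot be told apart. Beside Psph and Shmt2 this concerns Psat1 with the pseudogene Gm3329, Slc7a5 with Gm20388, and Slc7a11 with several unnamed models. Mthfd2 overlaps Gm43890 on its own strand.

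The ratios differed between the title blocks in size and, for some genes, in direction. In block 3, 8 of the 9 expressed genes were at least 2-fold higher in the experiment group, against 9.50% of all expressed genes, and 0 were at least 2-fold lower, against 14.3%. In block 4 the counts were 8 higher, against 14.9% of all expressed genes, and 0 lower, against 23.1%. In block 1, 3 of 9 were at least 2-fold higher, against 14.8% of all expressed genes, and 1 at least 2-fold lower, against 26.4%. In block 2, 3 of 9 were at least 2-fold higher, against 7.37%, and 0 at least 2-fold lower, against 12.6%. The median log2 ratio of the 9 genes was 0.48 in block 1, 0.24 in block 2, 2.62 in block 3 and 2.88 in block 4. The medians of all expressed genes lay between -0.12 and -0.05 in these blocks. The difference between blocks was not tested. Blocks are small, and leaving out each library of a block in turn, an alternative added after the data were seen, gave 3 to 5 genes at least 2-fold higher in block 1, 2 to 3 in block 2, 7 to 8 in block 3 and 8 to 9 in block 4. The 5 in block 1 came without control 7, and the number at least 2-fold lower there ran from 1 to 3. The median log2 ratio ran from -0.05 to 1.43 in block 1, from 0.16 to 0.62 in block 2, and from 2.24 to 3.03 and 2.24 to 3.06 in blocks 3 and 4.

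Psat1 was 1.56 times as high in the experiment group in block 1, and 9.06, 8.33 and 14.2 times as high in blocks 2, 3 and 4. The block 1 ratio of Psat1 turned on single libraries, since control 7 held 383 of the 721 control counts and experiment 7 held 516 of the 859 experiment counts. It was 3.08 without control 7, 2.13 without experiment 1 and 0.734 without experiment 7. In block 2, control 20 held 65 of the 115 control counts of Psat1, and the ratio without it was 19.2. The control level of Psat1 was lower in block 2, 9.81 CPM, than in the other blocks, where it ran from 24.4 to 52.8 CPM, and the experiment level was 82.5 and 88.9 CPM in blocks 1 and 2 and 295 and 346 CPM in blocks 3 and 4. Phgdh had no count in any of the 7 experiment libraries of block 1, while the 10 control libraries there held 249 counts, 18.2 CPM. With the 0 set to a floor of 3 counts over the group, Phgdh was 63.3-fold lower in the experiment group of block 1. This is a ratio of 0.0158, and its upper counting limit was 0.0196. Control 1 held 177 of those 249 counts, and without it Phgdh was 19.8-fold lower at that floor. In blocks 2, 3 and 4 Phgdh was 3.48, 6.13 and 28.6 times as high in the experiment group, and without control 45 the block 3 ratio was 9.88 and without control 70 the block 4 ratio 47.1.

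Psph was 13.4, 2.63, 3.50 and 7.35 times as high in the experiment group in blocks 1 to 4. In block 1, control 6 held 51 of the 52 control counts of Psph, and experiment 7 held 238 of the 531 experiment counts (8.69 without it). Without experiment 26 the block 2 ratio of Psph was 1.78, and the block 3 ratio was 2.06 without experiment 46 and 8.41 without control 42.

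Shmt2 was 24.6, 1.10, 13.7 and 6.72 times as high in the experiment group in blocks 1 to 4. In block 1 the Shmt2 counts came from 3 experiment libraries and from control 3 alone, which held all 54 control counts. Without control 3 and with the 0 set to a floor of 3 counts over the group, Shmt2 was 379-fold higher. Without experiment 21, 27 or 31 the block 2 ratio of Shmt2 fell to between 0.869 and 0.926, and without control 45 the block 3 ratio was 29.2. Mthfd2 was 1.40 and 1.39 times as high in blocks 1 and 2, and 8.33 and 10.4 times in blocks 3 and 4. Control 7 held 539 of the 792 block 1 control counts of Mthfd2, and the ratio there was 4.04 without it. The block 2 ratio of Mthfd2 was 0.838 without experiment 25 and 0.942 without experiment 26, and the block 4 ratio was 4.34 without experiment 55 and 16.4 without control 62.

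For Slc7a5 the ratios were 1.02 and 1.13 in blocks 1 and 2, both with counting intervals that include 1, and 7.87 and 7.59 in blocks 3 and 4. In block 1 experiment 7 held all 124 experiment counts of Slc7a5. Without experiment 7 and with the 0 set to a floor of 3 counts over the group, the gene was 34.6-fold lower. Without control 9 the block 1 ratio of Slc7a5 was 1.55, and without control 3 it was 0.869. In block 2 it was 0.685 without experiment 31 and 0.899 without experiment 25, and in block 3 it was 5.11 without experiment 46.

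Slc3a2 was 2.92, 1.18, 2.70 and 3.60 times as high in the experiment group in blocks 1 to 4. For Slc1a4 the ratio was 0.819 and 0.698 in blocks 1 and 2 and 2.02 and 1.83 in blocks 3 and 4. Without control 7 the block 1 ratio of Slc1a4 was 1.27 and without experiment 2 it was 0.518, and without experiment 46 the block 3 ratio was 1.48. For Slc7a3 it was 1.06, 0.845, 1.43 and 5.16, and 0.404 in block 1 without experiment 7, which held 902 of the 1332 experiment counts there. Slc7a11 had ratios of 18.7, 0.398 and 66.3 in blocks 2, 3 and 4, from 35, 15 and 42 experiment counts and 2, 71 and 3 control counts, with counting intervals that were wide. The block 2 ratio of Slc7a11 was 5.10 without experiment 31, and the block 3 ratio ran from 0.0557 without experiment 39 to 0.748 without control 55. In block 4 its experiment counts came from 2 libraries, experiment 49 at 44.5 CPM and experiment 56 at 1.11 CPM. Without experiment 49 too few counts remained there to form a ratio.

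**Figure D2:**
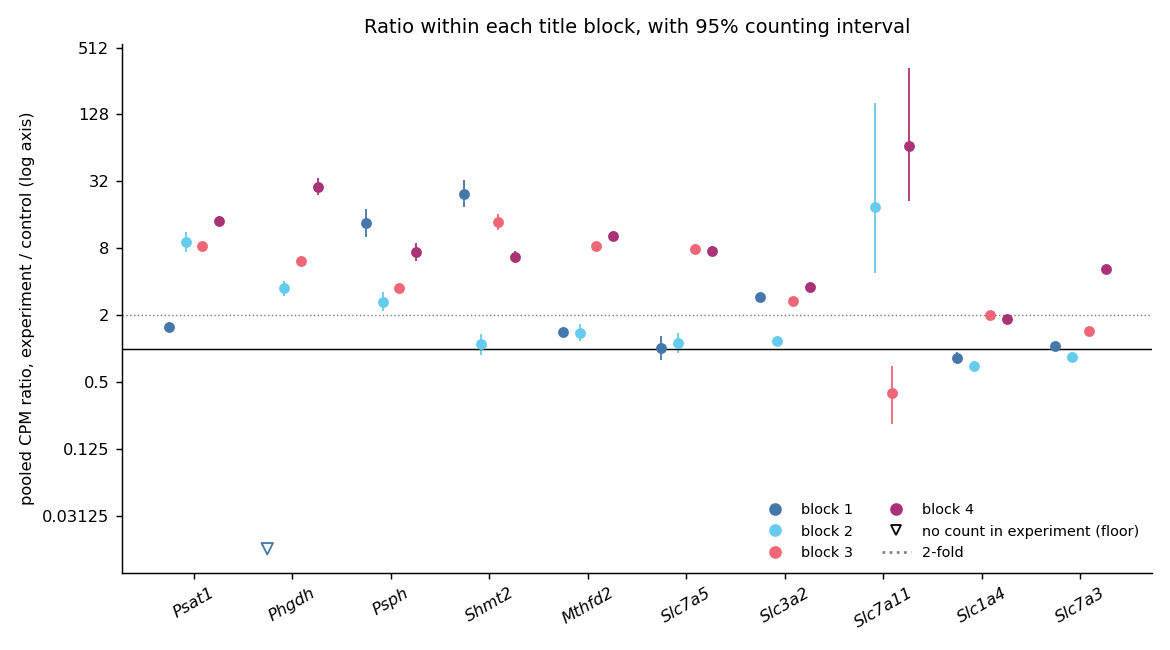
Ratio of pooled CPM, experiment over control, for each gene within title blocks 1 to 4, on a logarithmic axis with 95% counting intervals; the dotted line marks 2-fold and the open triangle the floor for Phgdh in block 1, where the experiment libraries held no count. Mthfd2 and Slc7a5 lie between 1.02 and 1.40 in blocks 1 and 2 and between 7.59 and 10.4 in blocks 3 and 4, where the block 1 value of Mthfd2 is 4.04 without control 7 and that of Slc7a5 rests on experiment 7 alone.

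The number of genes at a high level was then counted in each neuron. For each gene, the 90th percentile of the control neurons was taken as a mark, and the genes above their mark were counted in each neuron. Experiment neurons had a median of 3 genes above the mark and a highest of 9, in experiment 36, and control neurons had a median of 1.00 and a highest of 4, in control 55. At least 3 genes lay above the mark in 22 of 38 experiment neurons (57.9%) and 6 of 66 control neurons (9.09%). At least 5 lay above it in 14 experiment neurons and 0 control neurons. For Slc7a11 the mark was only 0.890 CPM, so a level of 1.08 CPM in control 61 passed it without being high. Experiments 27, 37 and 49 reached 3 genes only with Slc7a11, at 7.19, 1.33 and 44.5 CPM. Control 55 reached 4 only with Slc7a11, at 28.96 CPM. The mark is taken from the controls, so the control shares are set by it in part, and the genes were chosen for higher experiment levels, so the larger numbers in experiment neurons follow in part from the choice.

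By block, 3 of 7 experiment neurons in block 1, 3 of 14 in block 2, 11 of 12 in block 3 and 5 of 5 in block 4 had at least 3 genes above the mark. The control neurons numbered 1 of 10, 1 of 21, 4 of 18 and 0 of 17. Experiments 27 (block 2), 37 (block 3) and 49 (block 4) are counted here only through Slc7a11. The neurons named next were chosen after their values were seen. Experiment 46 was highest for Psph (522 CPM), Slc7a5 (497 CPM), Slc3a2 (1098 CPM) and Slc1a4 (657 CPM), with Mthfd2 at 29.1 CPM. Experiment 55 was highest for Shmt2 (373 CPM), Mthfd2 (838 CPM) and Slc7a3 (827 CPM), with Psat1 at 700.1 CPM and Slc1a4 at 102 CPM. Both neurons had 8 genes above the control mark, enzymes and transporters alike. Experiment 46 also had Shmt2 at 177 CPM, and experiment 55 had Slc7a5 at 250.1 CPM and Slc3a2 at 618 CPM. Control 7 held Psat1 at 368 CPM and Mthfd2 at 518 CPM, the highest control levels of both, with no count of Phgdh, Psph or Shmt2.

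Counts of all 3 serine synthesis enzymes occurred in the same neuron in 15 of 38 experiment libraries (39.5%, exact Clopper-Pearson interval 24.04% to 56.6%) and 5 of 66 control libraries (7.58%, 2.51% to 16.8%). These intervals cover counting error over the libraries at hand and are no test between the groups, since neurons of a group are not replicates. At the thinned depth the shares were 15 of 34 (44.1%) and 4 of 60 (6.67%). Neurons with none of the 3 enzymes made up 5 of 38 experiment and 12 of 66 control libraries. Shmt2 and Mthfd2 occurred together in 21 of 38 experiment and 19 of 66 control libraries. Slc7a5 and its heavy chain Slc3a2 occurred together in 24 of 38 and 41 of 66 libraries, close to equal shares (63.2% and 62.1%).

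How the levels of the 9 expressed genes followed each other across neurons is a description over libraries that share collection, depth and title block. Over the 36 pairs of genes, Spearman's rho of log2(CPM + 1) had a median of 0.46 in the 38 experiment libraries, from 0.26 to 0.68. In the 66 control libraries the median was 0.01, from -0.26 to 0.29. Psat1 and Phgdh had a rho of 0.63 in the experiment and 0.25 in the control libraries (Pearson's r 0.48 and 0.20). Within blocks 1 to 4 the median rho of the experiment libraries was 0.04, 0.17, 0.42 and 0.25, and that of the control libraries was 0.06, 0.10, 0.01 and -0.03. In block 1 Phgdh had no count in the experiment libraries, so its pairs there have no rho and were entered as 0. The value of 0.04 is therefore not compared with the others. In blocks 2 to 4 the experiment value lay below the pooled value. It was close to the control value in block 2 and higher in blocks 3 and 4, with only 5 experiment libraries in block 4. None of these differences was tested.

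**Figure D3:**
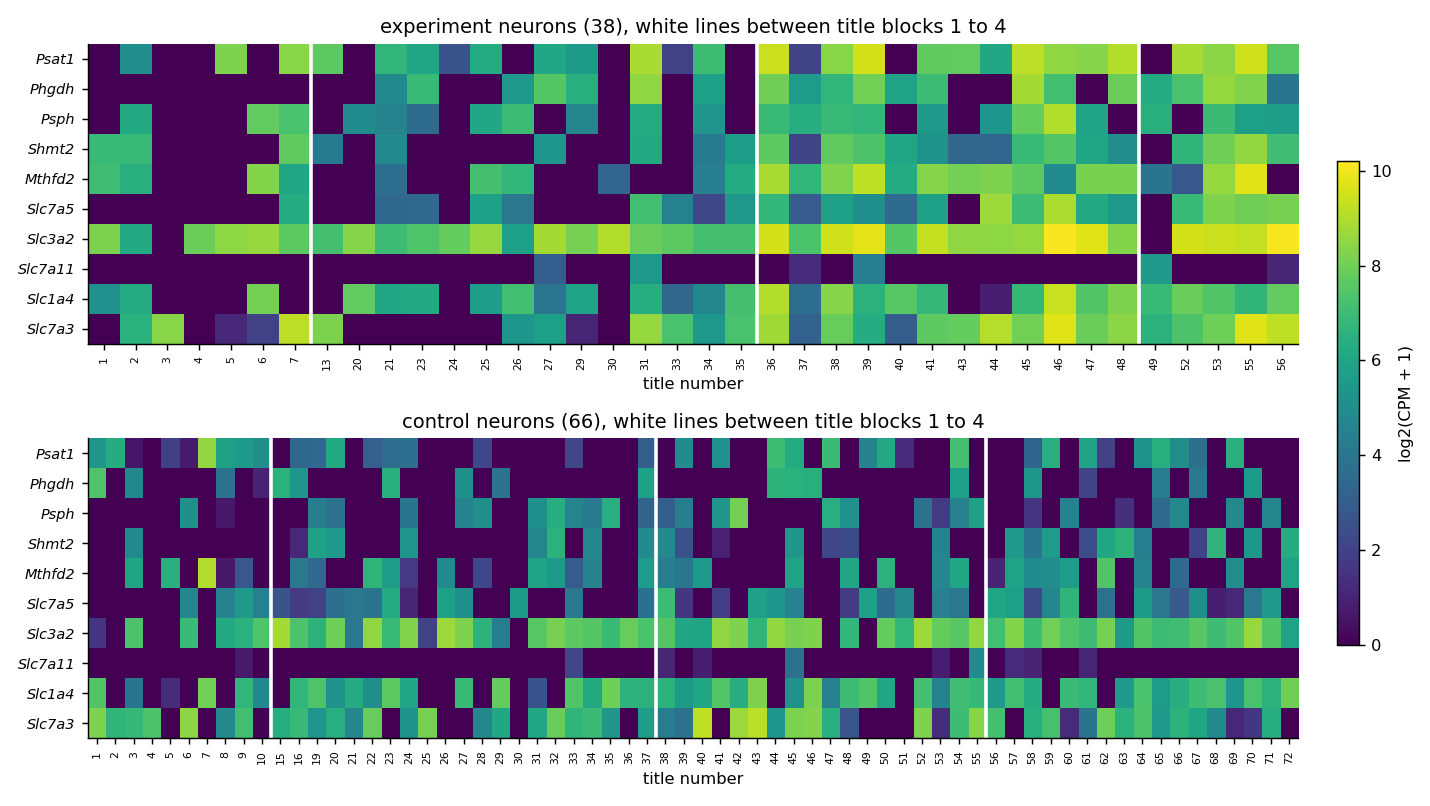
Levels of the 10 genes (vertical axis) in each neuron (horizontal axis, by title number), as log2(CPM + 1) in colour, for 38 experiment neurons above and 66 control neurons below; white lines part the title blocks. In blocks 3 and 4 the experiment neurons are bright in most genes at once, with 8 of 12 and 4 of 5 neurons holding at least 5 genes above the control mark, and in block 1 the row of Phgdh is empty.

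The genes most like Psat1 over all libraries of both groups, by Spearman's rho among expressed genes outside the described set, were Hspa9 (0.47), Gars (0.47), Mut (0.45), Sars (0.39) and Ddit3 (0.38). Such a rho includes the difference between the groups. In the same order, rho with Psat1 was 0.76, 0.80, 0.40, 0.65 and 0.47 within the experiment libraries. Within the control libraries it was 0.17, 0.13, 0.33, 0.03 and 0.08. Hspa9 is a mitochondrial chaperone, Gars and Sars charge transfer RNAs with glycine and serine, and Ddit3 is a transcription factor of the integrated stress response. The genes most like Slc7a5 were Hspa9 (0.49), Arih1 (0.48), Sars (0.46), Phtf2 (0.43) and Rcan1 (0.42), with 0.44 to 0.78 within the experiment and 0.14 to 0.39 within the control libraries. For Phgdh they were Mlc1 (0.46), Sepp1 (0.44), Vezt (0.41), Ybx1 (0.41) and Clic4 (0.39), with 0.46 to 0.58 within the experiment and 0.10 to 0.36 within the control libraries. Mlc1 is a membrane protein of astrocytes, and its pooled level was 37.2 CPM in the experiment and 8.68 CPM in the control group. The lists of Psat1 and Slc7a5 shared Hspa9 and Sars, and that of Phgdh shared no gene with either.

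Other genes of the same pathways were taken from 4 lists, read against the background of 3.45% of expressed genes at least 2-fold higher and 5.88% at least 2-fold lower. Of 25 other enzymes and carriers of serine, glycine and folate metabolism, 15 were expressed, 4 at least 2-fold higher and 1 at least 2-fold lower, with a median log2 ratio of 0.24. Mthfd1l and Aldh1l2, which act after Mthfd2 in the mitochondrial folate cycle, were 3.03 and 4.93 times as high in the experiment group, and Aldh1l2 was 3.03 times as high without experiment 46, which held 40.9% of its experiment counts. The higher genes also included Gcat (2.08), which breaks down threonine to glycine, and Sdsl (2.22), a relative of serine dehydratase, of which experiment 2 held 61.6% of the experiment counts. Without experiment 2 the ratio of Sdsl was 0.925, and without experiment 43 that of Gcat was 1.65. Mthfd1, the cytosolic counterpart, was lower, at 18.1 against 37.4 CPM (ratio 0.485, and 0.525 without experiment 2). Mthfd1l and Aldh1l2 thus lay above and Mthfd1 below the control level. With libraries scaled by spike-in counts, which moved all expressed genes down to a median of -0.78, the median of this list was -0.51. Under that scaling 1 gene was at least 2-fold higher, against 0.593% of all expressed genes. At least 2-fold lower were 2 genes, against 33.4% of all expressed genes. Mthfd1l (1.81), Aldh1l2 (2.94), Gcat (1.24) and Sdsl (1.32) stayed above a ratio of 1. Leaving out each library in turn gave 2 to 4 genes of this list at least 2-fold higher, 2 without experiment 2, and 0 to 1 lower.

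Of 30 other amino acid transporters, 17 were expressed, 2 at least 2-fold higher and 0 at least 2-fold lower, with a median log2 ratio of -0.03. Slc7a1, a carrier of arginine and lysine, was 2.66 times as high, at 36.5 against 13.7 CPM. Slc38a2, a sodium-coupled carrier of neutral amino acids, was 2.21 times as high, at 155 against 70.1 CPM. Slc43a2, another carrier of large neutral amino acids, had a ratio of 0.529, and Slc1a5, a glutamine carrier that did not pass the expression filter, one of 0.931. Transporters outside the described set thus had a median near that of all expressed genes, also under spike-in scaling (-0.77). Under that scaling 0 of the 17 were at least 2-fold higher, against 0.593% of all expressed genes. At least 2-fold lower were 7 of the 17, against 33.4% of all expressed genes. Leaving out each library in turn gave 2 higher and 0 to 2 lower.

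The list of amino acid response genes around ATF4 held 29 expressed genes of 38, of which 8 were at least 2-fold higher, 0 at least 2-fold lower and 25 above a ratio of 1. Its median log2 ratio was 0.73, with 0.11 in blocks 1 and 2 together and 1.22 in blocks 3 and 4 together. Under spike-in scaling the median was -0.01, still above the median of -0.78 of all expressed genes, with 14 of 29 genes above a ratio of 1. Under that scaling 2 were at least 2-fold higher, against 0.593% of all expressed genes. At least 2-fold lower were 2, against 33.4% of all expressed genes. Pycr1 and Aldh18a1, enzymes of proline synthesis, were 4.34 and 2.01 times as high in the experiment group, and Aldh18a1 was 1.53 times as high without experiment 46. For Aldh18a1 the log2 ratio was -1.78 in blocks 1 and 2 together and 2.07 in blocks 3 and 4 together. Eif4ebp1, a repressor of translation, was 3.97 and Chac1, which breaks down glutathione, 2.79 times as high. Atf4 itself was 1.51 times as high, at 178 against 118 CPM, but had a ratio of 0.898 under spike-in scaling, and Asns, asparagine synthetase, 1.78 times, at 548 against 308 CPM. Ddit3 (2.40) and Cars (2.31) were also at least 2-fold higher, as were Cebpg (2.34, and 1.99 without experiment 5) and Sesn2 (2.72). Sesn2 was 1.73 times as high without experiment 46, which held 38.9% of its experiment counts, and its log2 ratio was -1.72 in blocks 1 and 2 together and 2.74 in blocks 3 and 4 together. Leaving out each library in turn gave 6 to 9 genes of the list at least 2-fold higher.

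Of 16 genes of NRF2 activity and glutathione, which Slc7a11 feeds with cystine, 13 were expressed, 1 at least 2-fold higher and 1 at least 2-fold lower, with a median log2 ratio of -0.09. Under spike-in scaling the median was -0.84, near that of all expressed genes (-0.78). With that scaling 0 were at least 2-fold higher, against 0.593% of all expressed genes. At least 2-fold lower were 5 of the 13, against 33.4% of all expressed genes. The higher gene was Chac1, which also stands in the ATF4 list. Gclc, the catalytic subunit of the first enzyme of glutathione synthesis, was lower, at 15.6 against 36.1 CPM (ratio 0.430), and Gss, the second enzyme, had a ratio of 0.518.

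**Figure D4:**
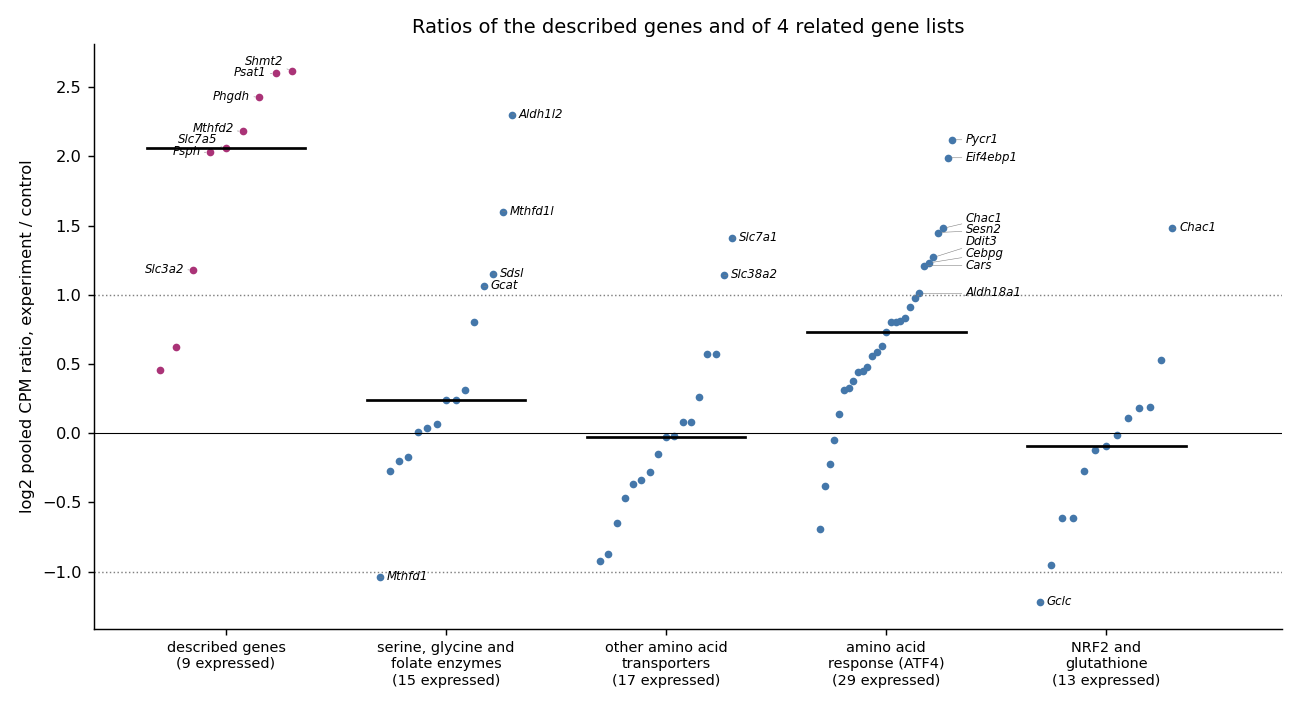
Log2 ratio of pooled CPM, experiment over control, for the 9 expressed genes described and the expressed genes of 4 related lists; points are genes, black lines list medians and dotted lines 2-fold. Scaled by gene counts, the medians are 2.06 for the described genes, 0.24 for serine, glycine and folate enzymes, -0.03 for other transporters, 0.73 for the ATF4 list and -0.09 for NRF2 and glutathione.

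Markers of other cells differed between the groups, and serine synthesis is known to be strong in astrocytes and Slc7a5 in the endothelium. Dopaminergic markers were mostly lower in the experiment group, with 1 of 8 above a ratio of 1 and 0 at least 2-fold lower. Their median log2 ratio was -0.307, with ratios of 0.543 for Th, 0.800 for Slc6a3 and 1.22 for En1. Of 12 astrocyte markers 8 were expressed, all 8 with ratios above 1. Of these 8, 5 were at least 2-fold higher in the experiment group, against 3.45% of all expressed genes. The summed level of all 12 astrocyte markers ran from 91.2 to 9999 CPM with a median of 683 in the experiment libraries, and from 99.3 to 2637 CPM with a median of 442 in the control libraries. Without the fifth of the libraries with the highest astrocyte sums, 11 experiment and 10 control libraries, 7 of the 9 genes were still at least 2-fold higher and the median log2 ratio was 2.61. Of all expressed genes, 4.63% were then at least 2-fold higher and 7.62% at least 2-fold lower. The ratio was then 9.30 for Psat1, 8.73 for Phgdh, 8.56 for Shmt2 and 7.75 for Mthfd2, each larger than with all libraries. The libraries left out were not balanced by block and included experiments 2, 3, 4 and 5 of block 1. They also included control 7, with 16.5% of the Psat1 and 22.5% of the Mthfd2 control counts. Control 45, with 19.1% of the Phgdh control counts, was left out as well. The part of these libraries in the rise was not tested. Within the experiment libraries, Spearman's rho with the astrocyte sum was -0.09 for Psat1, 0.12 for Phgdh, -0.39 for Mthfd2 and 0.38 for Slc7a11. In the same order, rho was 0.16, 0.22, -0.05 and -0.15 within the control libraries. Over all libraries it was 0.14, 0.24, -0.11 and 0.05. Without the libraries highest in astrocyte markers the ratio of Slc7a11 was 0.709. Experiment 55, with Psat1 at 700.1 CPM, had the lowest astrocyte sum of the experiment group, 91.2 CPM.

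**Figure D5:**
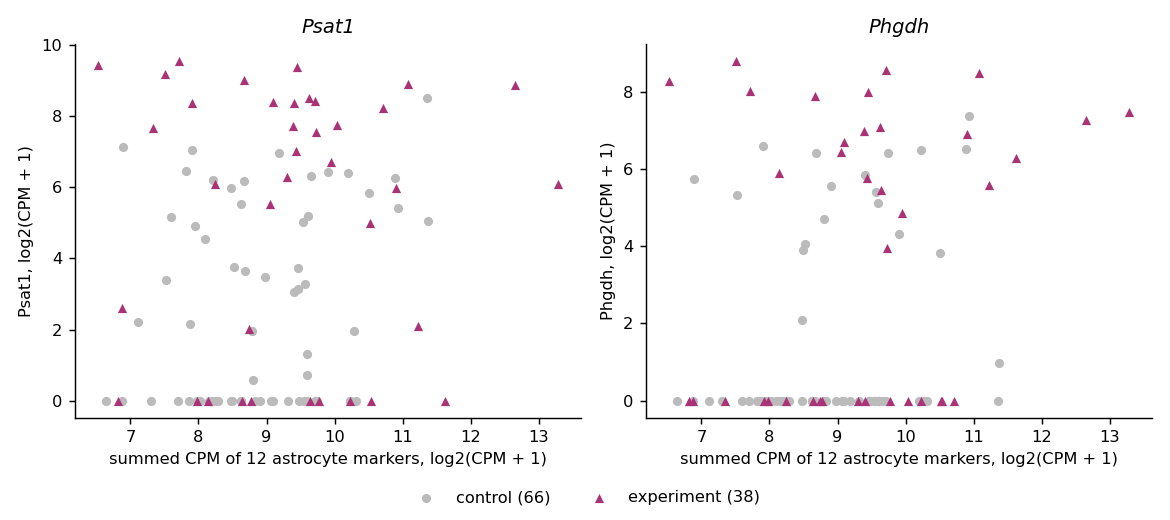
Level of Psat1 (left) and Phgdh (right) against the summed level of 12 astrocyte markers in each neuron, both as log2(CPM + 1); triangles are 38 experiment neurons and circles 66 control neurons. High Psat1 levels stand at both ends of the horizontal axis, for example 700.1 CPM at an astrocyte sum of 91.2 CPM and 467 CPM at a sum of 6454 CPM.

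Of 7 endothelial markers 1 was expressed, Slc2a1, a glucose carrier that other cells use as well. Cldn5 and Slco1a4 had no count in any library, which allows a count in up to 2.88% of such libraries and says nothing of transcripts below detection, and Pecam1 had none in the experiment group. The endothelial sum had a median of 2.30 CPM in the experiment and 10.7 CPM in the control libraries, with highest values of 185 and 199 CPM. GABAergic markers were higher, 4 of 4 expressed with ratios above 1, at a median sum of 140.0 against 51.1 CPM, and microglial markers were, 5 of 6, at 156 against 131 CPM. At least 2-fold higher were 3 of the 4 GABAergic and 2 of the 6 microglial markers, against 3.45% of all expressed genes. Oligodendrocyte markers had ratios above 1 in 4 of 6 expressed, at a median sum of 852 against 553 CPM. Markers of oligodendrocyte precursors were divided, with 1 of 2 expressed above a ratio of 1, the other at least 2-fold lower, and a median sum of 24.5 against 70.9 CPM. The share of spike-in counts had a median of 0.421% in the experiment and 0.251% in the control libraries, and that of mitochondrial counts one of 4.33% and 2.72%. Among libraries with a spike-in share at or below the overall median, 12 experiment and 40 control libraries, 5 of 9 genes were at least 2-fold higher, Psat1 was 3.30 times and Phgdh 1.30 times as high. Of all expressed genes, 7.17% were at least 2-fold higher there and 15.2% at least 2-fold lower. Only 3 of these 12 experiment libraries come from blocks 3 and 4. The part of these measures in the ratios was not tested beyond the values given.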

How the data were processed

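RNA of single neurons was amplified by Smart-seq2 and sequenced from HyperPlus libraries, as the labels' protocols state. A single table of raw counts per gene was deposited, with 45808 gene rows. Its 92 ERCC spike-in rows did not enter the totals. The submitters' processing notes name mm10, STAR 2.5.3a and featureCounts 1.5.3, with no role or order. Annotation, strandedness and the handling of reads that map to several genes: not given in the sources used here.

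Titles gave the groups. Counts were summed over a group and divided by its summed gene counts (40170276 in the experiment and 74342518 in the control group) to give pooled CPM with exact Poisson intervals. The ratio carries the exact binomial interval of the summed counts, all at the 95% level. A sum of 0 was set to 3 counts, and no ratio was formed where both sums were at or under 3. Shares of libraries used counts thinned to 400000, which left out 4 experiment and 6 control libraries. No pair among 5356 pairs of libraries had identical counts. No test was run, because no label names an animal. The computation of ratios was tested on simulated data.

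The described genes and the gene lists were chosen with earlier results of these data known, as were the title blocks, whose borders follow the order of the records and the title numbers. All described genes are named whatever their values. From each list the rule takes the 3 expressed genes furthest from a ratio of 1 in the same direction by pooled and by mean library CPM, and Atf4, Asns, Slc38a2 and Slc1a5 whatever their values. Other list genes past 2-fold were named after their values were seen. The 5 genes most like Psat1, Phgdh and Slc7a5 leave out unnamed models, pseudogenes and ribosomal protein genes. Positions are from GENCODE M21 on GRCm38. Alternatives were other weightings, scalings (TMM from edgeR 4.0.16, spike-ins), thinning, thresholds, blocks and libraries left out. Python 3.11.15, numpy 2.4.6, pandas 2.3.3, scipy 1.17.1, matplotlib 3.10.9 and R 4.3.3 were used.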

Additional observations from a re-analysis of the deposited data

How the results depend on the processing

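The number of genes at least 2-fold higher in the experiment group, 7 of 9, was 3 in title blocks 1 and 2 together, 3 in block 1 alone and 3 in block 2 alone, and the number at least 2-fold lower, 0, was 1 in block 1 alone. The cause was not tested. Of all expressed genes, 6.96% were at least 2-fold higher in blocks 1 and 2 together and 6.55% in blocks 3 and 4 together. The number of the described genes higher was 9 in blocks 3 and 4 together. It was 6 by mean log2(CPM + 1), by mean log2(CPM + 10) and by spike-in scaling, 8 at a threshold of 1.5-fold and 6 at 3-fold, and 5 among libraries with a low spike-in share. The gene that fell below 2-fold was Slc7a5 by both of these means (log2 ratios 0.99 and 0.77). By spike-in scaling it was Slc3a2 (log2 ratio 0.43). Leaving out each library in turn gave 7 to 7. The log2 ratio turned below 0 for Phgdh in block 1 (-5.98), where the experiment group held no count, and for Slc7a11 in block 3 (-1.33), without the libraries highest in astrocyte markers (-0.50) and among libraries with a low spike-in share (-1.78), where few counts remained. It also fell below 0 for Slc1a4 by spike-in scaling (-0.29), in blocks 1 and 2 together (-0.39) and apart (-0.29 and -0.52) and at a low spike-in share (-0.25), and for Slc7a3 by spike-in scaling (-0.13), in blocks 1 and 2 together (-0.07) and in block 2 (-0.24). Spike-in scaling moved the median over all expressed genes to a log2 ratio of -0.78, against which 7 of 9 genes were at least 2-fold higher. Mean log2(CPM + 1) moved it to -0.38 and TMM to -0.11. The share of expressed genes at least 2-fold higher was 0.757% by mean log2(CPM + 1), 0.154% by mean log2(CPM + 10), 0.593% by spike-in scaling and 14.2% with no expression filter, and the share lower was 15.5%, 1.40%, 33.4% and 17.4%. Libraries with at least 5000 genes, those with a low spike-in share those without experiments 46 and 55, leaving out each library within a block, and the list counts by spike-in scaling and without each library were alternatives chosen after seeing the data. No paired analysis was possible because no label ties a library to an animal. Slc7a11 had the fewest counts of the 10 genes, 92 in the experiment and 77 in the control group.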

Other observations

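Some genes of the lists did not pass the expression filter but lay far apart between the groups, and they were named after their values were seen. Slc7a10, a carrier of serine and glycine, was at 34.3 CPM in the experiment and 1.57 CPM in the control group, from counts in 8 of 38 and 4 of 66 libraries. Experiment 27, the library with the highest astrocyte marker sum, held 37.9% of its experiment counts. Trib3, a target of ATF4, was at 15.2 against 2.00 CPM from 5 and 4 libraries, and experiment 43 held 53.9% of its experiment counts. Atf5, a relative of ATF4, was at 5.83 against 0.942 CPM, with a count in 16 experiment and 11 control libraries.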
